A study of Mus musculus with 3 samples.

Results

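Genes that mark fast-twitch skeletal muscle fibres were followed through skin wound healing. They were given by gene symbol and are 10 of the 32285 genes counted. The set holds the adult fast myosin heavy chains *Myh1*, *Myh2* and *Myh4*, skeletal actin *Acta1*, the light chain *Mylpf*, the fast troponin subunits *Tnnt3*, *Tnni2* and *Tnnc2*, muscle creatine kinase *Ckm* and the calcium pump *Atp2a1*. In a muscle fibre, myosin heavy chains pull on actin filaments when calcium, released into the fibre, binds the troponin complex, and the calcium pump then returns the calcium to its store. Adult mouse fibres are typed by the myosin heavy chain they make: *Myh2* marks type IIa, *Myh1* type IIx and *Myh4* type IIb, the fastest and most glycolytic of these, while *Myh7* marks slow fibres. The skin of the mouse back lies on a thin sheet of striated muscle, the panniculus carnosus, and beneath that are the muscles of the trunk.

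Spatial transcriptomes were recorded with Visium slides, where a frozen section covers a grid of barcoded spots that capture polyadenylated RNA, and each captured molecule is counted once by its unique molecular identifier (UMI). The tissue was wounded skin of C57BL/6J mice, collected on Day 3, Day 7 and Day 14 after injury. Per the study's methods the mice were adult males, and the wounds were full-thickness punch excisions of the back harvested with a wider punch. Each day was represented by 1 section (n = 1), with no unwounded section, so day, animal, section and slide cannot be told apart.

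No test between days was possible, and the 95% intervals given below cover counting error only. Spots under tissue are those that the deposited position lists mark as such. They numbered 664, 549 and 697 on Days 3, 7 and 14 of 4992 spots per slide, with 1772259, 4442962 and 4611723 UMIs. The spots outside the marks held another 49.0%, 59.2% and 50.6% of the UMIs of their slides, and 674, 2118 and 1780 of them had at least 500 UMIs. Both places are therefore described, and outside means outside the marks. The paper's supplement says of its slide photographs that selected spots show the region of interest. Spots outside the marks may therefore also lie on tissue. A spot is a small region that can hold several cells, the 4992 barcodes are the same on the 3 slides, and fewer fibres cannot be told apart from less RNA per fibre. Markers of skin were present under tissue on each day, with summed epidermal markers (5 genes) between 3330.2 and 8239 UMIs per 1000000 UMIs (CPM) and summed fibroblast markers between 23423 and 46557 CPM.

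The 3 fast myosin genes sit side by side on chromosome 11, and their start sites are shown first because the shares of these 3 genes are the main comparison. In the GENCODE M21 annotation of GRCm38 (mm10) each gene lies on the plus strand and is protein coding. *Myh2* comes first (11: 67171027 to 67197517), followed by *Myh1* (67200052 to 67224575) and *Myh4* (67238029 to 67260446), so that the cluster spans 89420 bp. The sequences below run from 250 bases before to 50 bases after each RefSeq start in GRCm38, 5′ to 3′. The windows are chr11:67199852-67200151, chr11:67170777-67171076 and chr11:67237562-67237861 in the order printed. Capitals mark the longest stretch present in all 3 windows, 20 bases long, and, upstream of it in *Myh1* and *Myh4*, a match to the MEF2 box, the motif of a muscle transcription factor family.
Myh1: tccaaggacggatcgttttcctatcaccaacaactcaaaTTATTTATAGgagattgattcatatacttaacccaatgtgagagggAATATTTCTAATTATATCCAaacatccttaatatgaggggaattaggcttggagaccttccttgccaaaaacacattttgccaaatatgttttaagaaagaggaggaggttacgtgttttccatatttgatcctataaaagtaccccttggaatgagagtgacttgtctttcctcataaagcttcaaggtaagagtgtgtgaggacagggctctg
Myh2: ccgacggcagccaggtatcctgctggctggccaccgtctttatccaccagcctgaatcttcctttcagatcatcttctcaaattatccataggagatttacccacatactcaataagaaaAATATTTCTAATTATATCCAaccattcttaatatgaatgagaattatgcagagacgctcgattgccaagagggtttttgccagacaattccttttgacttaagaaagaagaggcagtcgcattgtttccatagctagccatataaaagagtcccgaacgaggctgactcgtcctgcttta
Myh4: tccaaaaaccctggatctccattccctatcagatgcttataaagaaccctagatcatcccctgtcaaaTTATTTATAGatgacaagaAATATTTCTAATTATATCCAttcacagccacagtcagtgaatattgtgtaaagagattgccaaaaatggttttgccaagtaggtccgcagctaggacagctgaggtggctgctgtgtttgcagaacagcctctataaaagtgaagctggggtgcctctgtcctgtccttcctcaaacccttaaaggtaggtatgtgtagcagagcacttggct

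The shared stretch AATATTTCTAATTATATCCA began 165 bases before the start of *Myh1*, 130 before that of *Myh2* and 163 before that of *Myh4*. On either strand it occurred in 3 of the 32817 promoter windows of the table (0.00914%), which are these 3. Over the whole windows the pairs were 57.8% identical for *Myh1* and *Myh4*, 52.1% for *Myh1* and *Myh2* and 49.0% for *Myh2* and *Myh4*. A MEF2 box, searched on both strands, was matched in 2 of the 8 member genes with a window, *Myh1* and *Myh4*, against 1.86% of all windows. The letters TATAAA, on either strand and partly overlapping the MEF2 match, were found in 4 of the 8 (*Myh1*, *Myh2*, *Myh4* and *Acta1*), against 13.6% of all windows. In *Myh2* the match began 10 bases after the start used, whereas *Myh1* had one 32 bases and *Myh4* one 31 bases before it. A CArG box was matched in *Myh4* and *Acta1* (1.63% of all windows) and the E-box letters CANNTG in 6 of the 8 (72.3%). *Tnnt3* and *Tnni2* had no entry.

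The other members are also protein coding. *Ckm* (7: 19404776 to 19422841, plus strand), *Atp2a1* (7: 126445858 to 126463108, minus), *Mylpf* (7: 127208890 to 127214298, plus), *Tnni2* (7: 142441808 to 142444410, plus) and *Tnnt3* (7: 142498836 to 142516009, plus) share chromosome 7. *Acta1* lies on chromosome 8 (123891769 to 123894751, minus) and *Tnnc2* on chromosome 2 (164777161 to 164779967, minus). Because the counts come from 3′ ends, the last 500 bases of the myosin transcripts were compared. Of 401 stretches of 100 bases in that end, 22 (5.49%) of *Myh1* and 22 of *Myh2* also occurred in a transcript of another gene, and 0 of *Myh4* did. The *Myh1* and *Myh4* ends were 81.8% identical, so that reads of the 3 genes could mostly be kept apart.

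Fast fibre RNA made up a larger share of the captured RNA on the later days, in both places. Under tissue the 10 genes held 3.97% of all UMIs (3.94 to 4.0) on Day 3, 5.07% (5.05 to 5.09) on Day 7 and 5.87% (5.85 to 5.89) on Day 14. Outside, the shares were 8.45%, 11.1% and 12.4%. The ratio of Day 14 over Day 3 was 1.48-fold under tissue (1.47 to 1.49) and 1.47-fold outside (1.46 to 1.47). Weighting every spot equally lowered the Day 7 over Day 3 log2 ratio under tissue from 0.35 to 0.08 and raised that outside from 0.40 to 1.05. Of the UMIs of these genes on each slide, 67.2%, 76.1% and 68.3% lay outside the marked spots.

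**Figure D1:**
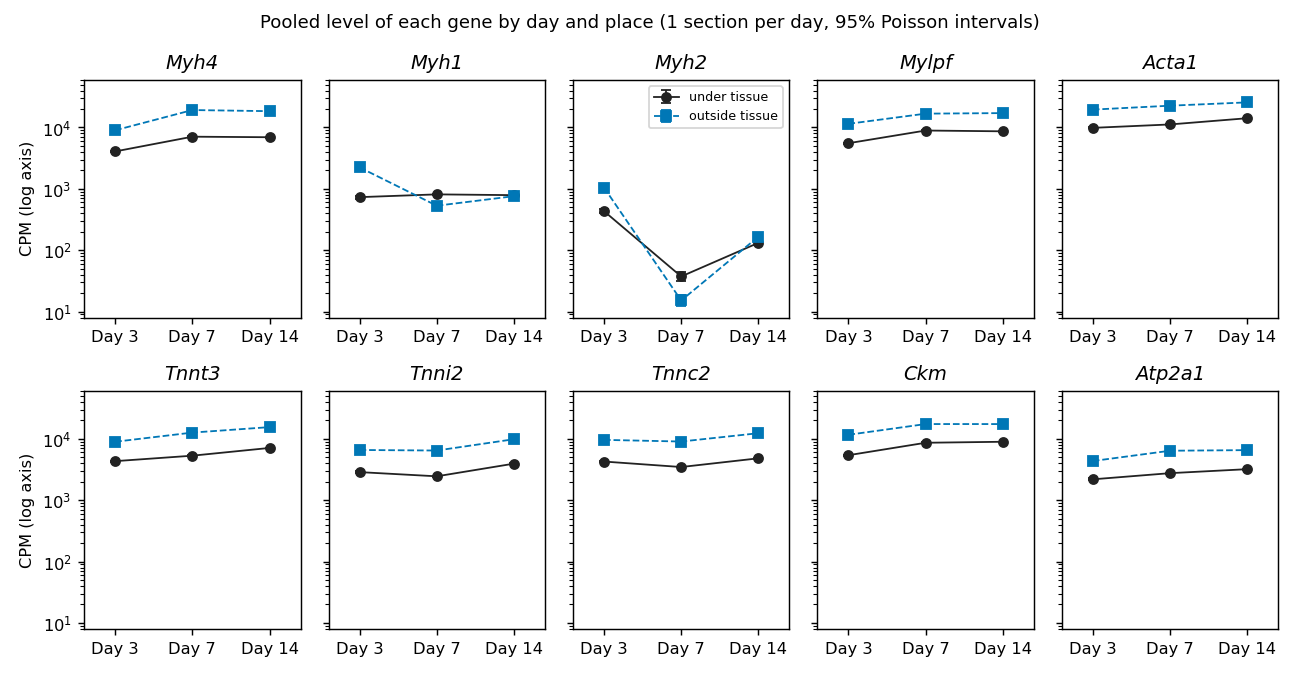
Pooled level of each gene in CPM (log axis) on Day 3, Day 7 and Day 14, in spots under tissue (circles) and outside (squares). Each point is 1 section with its 95% Poisson interval, and lines only join points of one place. *Myh1* and *Myh2* depart from the other 8 genes, with *Myh2* at 15.2 CPM outside on Day 7 against 1051 CPM on Day 3.

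*Myh4*, the type IIb heavy chain, was at 4071 CPM under tissue (3977 to 4166) on Day 3, 7083 CPM (7005 to 7161) on Day 7 and 6939 CPM (6863 to 7016) on Day 14. Outside, it was at 9005, 19247 and 18447 CPM. Day 3 was thus the low day in both places and the later days were close to each other. The Day 7 over Day 3 ratio was 1.74-fold under tissue (1.7 to 1.79) and 2.14-fold outside (2.10 to 2.17).

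*Myh2*, the type IIa heavy chain, ran the other way. Under tissue it was at 434 CPM (404 to 466) on Day 3, 37.4 CPM (31.9 to 43.5) on Day 7 and 132 CPM (122 to 143) on Day 14. Outside, it was at 1051, 15.2 and 167 CPM, the Day 7 value resting on 98 UMIs. Day 7 was the low day in both places. Day 3 exceeded Day 7 by 11.6-fold under tissue and by 69.2-fold outside, and Day 14 exceeded Day 7 by 3.53-fold (2.97 to 4.22) and 11-fold (8.89 to 13.7). With every spot weighted equally the Day 7 over Day 3 log2 ratio was -2.51 in place of -3.54 under tissue and -5.46 in place of -6.11 outside, and that of Day 14 over Day 7 under tissue was 1.04 in place of 1.82.

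*Myh1*, the type IIx heavy chain, had pooled levels within a narrow range under tissue and a wide one outside. Under tissue it was at 733 CPM (694 to 774) on Day 3, 813 CPM (787 to 840) on Day 7 and 789.7 CPM (764 to 816) on Day 14. The Day 14 over Day 7 log2 ratio of -0.04 had an interval that spanned 0 (-0.11 to 0.02), and the Day 14 over Day 3 ratio, 0.11 (0.02 to 0.20), became -0.04 with TMM factors. With every spot weighted equally the range under tissue was wider, with a log2 ratio of 0.54 for Day 7 over Day 3, whereas Day 14 over Day 7 gave -0.62. Outside, *Myh1* was at 2239.9 CPM, 531 and 760.3 CPM on Days 3, 7 and 14, so Day 3 was 4.22-fold above Day 7 (log2 ratio of Day 7 over Day 3 -2.08, and -1.02 with every spot weighted equally).

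Set against each other, the 3 myosins were closest in share on Day 3 and furthest apart on Day 7, in both places. Of the fast myosin UMIs under tissue, *Myh4* held 77.7% (76.9 to 78.6) on Day 3, 89.3% (88.9 to 89.6) on Day 7 and 88.3% (87.9 to 88.6) on Day 14. *Myh1* held 14.0%, 10.3% and 10.0%, and *Myh2* 8.28%, 0.471% and 1.68%. Outside, the *Myh4* share was 73.2%, 97.2% and 95.2%, the *Myh1* share 18.2%, 2.68% and 3.92%, and the *Myh2* share 8.55%, 0.0767% and 0.860%. A UMI counts 1 molecule by its 3′ end, so these shares were not divided by transcript length. On Day 3 the share of *Myh4* was higher under the marks than outside, and on Day 7 and Day 14 it was lower under the marks, beyond counting error on each slide. Leaving out the 10 spots richest in fast myosin per slide and place moved none of the 6 *Myh4* shares outside its interval.

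**Figure D2:**
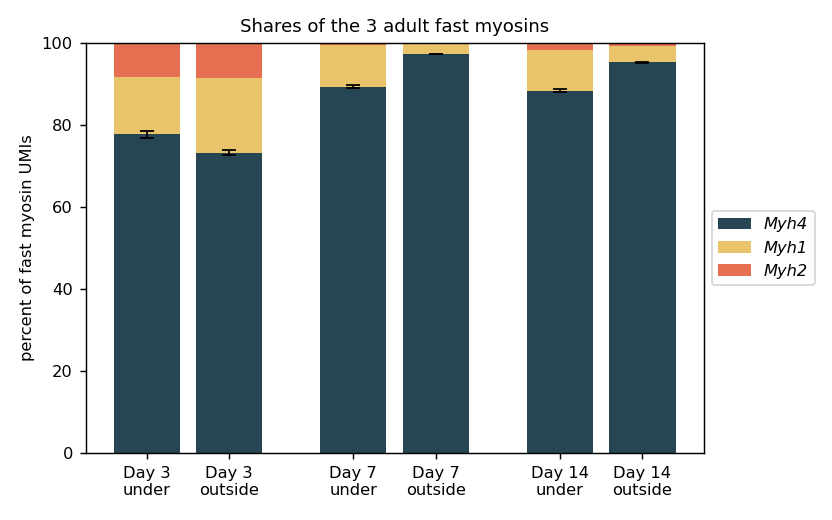
Share of *Myh4*, *Myh1* and *Myh2* in their summed UMIs, as stacked bars in percent from 0, for each day under and outside the marked tissue. Error bars are 95% binomial intervals of the *Myh4* share, which runs from 73.2% (Day 3, outside) to 97.2% (Day 7, outside).

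Skeletal actin and the light chain were higher on Day 14 than on Day 3 in both places. *Acta1*, the actin of the thin filament, was at 9867, 11209 and 14162 CPM under tissue and at 19558, 22657 and 25661 CPM outside. It was highest on Day 14 in each place, 1.44-fold above Day 3 under tissue (1.41 to 1.46), while its Day 7 over Day 3 log2 ratio under tissue, 0.18, became -0.11 with every spot weighted equally. *Mylpf*, the regulatory light chain of fast myosin, was at 5542, 8925 and 8662 CPM under tissue and at 11475, 16816 and 17161 CPM outside. Unlike *Acta1*, it reached its level by Day 7: the Day 14 over Day 7 log2 ratio was -0.043 under tissue and 0.029 outside, and both changed sign with equal weighting of spots (0.012 and -0.067). There were 0.562 *Mylpf* UMIs for each *Acta1* UMI under tissue (0.548 to 0.576) on Day 3, 0.796 (0.786 to 0.807) on Day 7 and 0.612 (0.604 to 0.619) on Day 14.

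The troponin subunits, which set the response of the thin filament to calcium, did not move as 1 unit. *Tnnt3*, which anchors the complex to tropomyosin, was at 4330.1, 5316 and 7110.1 CPM under tissue and at 8966, 12645 and 15524 CPM outside. It was higher on each later day, with Day 14 1.64-fold above Day 3 under tissue (1.60 to 1.68). *Tnni2*, the inhibitory subunit, was at 2870.3, 2452 and 3945 CPM under tissue and at 6583, 6449.7 and 9862 CPM outside. *Tnnc2*, the calcium-binding subunit, was at 4267, 3474 and 4818 CPM under tissue and at 9626, 9040.3 and 12359 CPM outside. Both were lowest on Day 7 under tissue, by log2 ratios to Day 3 of -0.23 (-0.28 to -0.18) and -0.30 (-0.34 to -0.26). Outside, the same ratio was -0.09 for *Tnnc2*, and 0.63 with every spot weighted equally, whereas that of *Tnni2* could not be told from no change (-0.03, -0.06 to 0.00) but was 0.76 with equal weighting.

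Against *Myh4* the difference was larger. For each *Myh4* UMI under tissue there were 0.705 *Tnni2* UMIs (0.680 to 0.731) on Day 3, 0.346 (0.339 to 0.354) on Day 7 and 0.569 (0.558 to 0.579) on Day 14. Outside, the values were 0.731, 0.335 and 0.535. *Tnnc2* per *Myh4* was 1.05, 0.490 and 0.694 under tissue, with 1.07, 0.470 and 0.670 outside. The places were close to each other on each day and the days were far apart. *Tnnc2* per *Tnnt3* was 0.985 under tissue on Day 3 and 0.653 and 0.678 on Day 7 and Day 14.

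*Ckm*, which buffers ATP from phosphocreatine, was at 5411, 8633 and 8961 CPM under tissue and at 11644, 17423 and 17406 CPM outside. The later days were about level, with a Day 14 over Day 7 log2 ratio of 0.05 under tissue (0.03 to 0.07) that became -0.07 with TMM factors, and 0.00 outside (-0.01 to 0.01). *Atp2a1*, which pumps calcium back into the sarcoplasmic reticulum of fast fibres, was at 2189, 2759 and 3206 CPM under tissue and at 4350.0, 6402 and 6549 CPM outside. Its Day 14 over Day 3 ratio was 1.46-fold under tissue and 1.51-fold outside. *Atp2a1* per *Ckm* UMI stayed between 0.320 and 0.405 over the 6 pools.

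Few of the 10 genes passed a 2-fold difference between days, taken over genes with at least 50 UMIs in the pair of pools. From Day 3 to Day 7 under tissue, 0 were higher and 1 (*Myh2*) was lower, where 8.04% of all 10541 genes were higher and 6.49% lower. From Day 3 to Day 14 under tissue 0 were higher (14.4% of all genes) and 1, again *Myh2*, was lower (6.83%). From Day 7 to Day 14 under tissue *Myh2* was the 1 gene higher (10.9%) and 0 were lower (7.34%). Outside, *Myh4* was higher and *Myh1* and *Myh2* were lower on Day 7 than on Day 3 (9.80% and 5.57% of all genes), and the same 3 genes passed from Day 3 to Day 14 (10.0% and 5.83%). From Day 7 to Day 14 outside, *Myh2* was the 1 gene higher (5.31%) and 0 were lower (5.89%). On the lower side outside, 2 of the 10 genes passed on Day 7 and on Day 14 against Day 3, above the shares of all genes (5.57% and 5.83%). The other counts were 0 or 1 of 10, and counts this small cannot be set closely against a share. The median log2 ratio of the 10 genes was 0.24 from Day 3 to Day 7 under tissue, with 0.04 over all genes, 0.54 from Day 3 to Day 14 (0.18) and 0.28 from Day 7 to Day 14 (0.13). Outside, the medians were 0.35 (0.12 over all genes), 0.58 (0.09) and 0.24 (0.00).

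Within each slide the pooled level was higher outside the marked tissue than under it. The summed ratio was 2.13-fold (2.11 to 2.15) on Day 3, 2.19-fold (2.18 to 2.20) on Day 7 and 2.11-fold (2.10 to 2.12) on Day 14. On Day 3, 8 of the 10 genes passed 2-fold higher (3.40% of all genes) and 0 lower (15.9%). On Day 7, 7 passed higher (3.36%) and 1, *Myh2*, lower (8.91%), and on Day 14, 5 passed higher (2.46%) and 0 lower (13.7%). The median log2 ratios were 1.13, 1.11 and 1.01, beside -0.38, -0.38 and -0.54 over all genes. The Day 3 direction depended on the weighting: with every spot weighted equally, the summed log2 ratio on Day 3 was -0.20, and it was 0.77 and 0.64 on Day 7 and Day 14. Outside, sparse spots were common on Day 3: their median was 91 UMIs, against 1513 under tissue. Among spots with at least 500 UMIs, the Day 3 ratio was 1.28 on the log2 scale.

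The myosins again stood apart in this comparison. The outside over under log2 ratio of *Myh4* was 1.15, 1.44 and 1.41 on Days 3, 7 and 14. That of *Myh1* was 1.61 (1.52 to 1.7) on Day 3, -0.61 (-0.68 to -0.55) on Day 7 and -0.05 (-0.12 to 0.01) on Day 14. That of *Myh2* was 1.28 (1.15 to 1.40) on Day 3, -1.30 (-1.67 to -0.93) on Day 7 and 0.34 (0.18 to 0.49) on Day 14. Both genes thus lay on opposite sides of 0 on Day 3 and Day 7, and with equal weighting of spots their Day 3 ratios were still positive (0.67 and 0.38) and their Day 7 ratios negative (-0.89 and -2.57). The Day 14 ratio of *Myh2* turned to -0.43 with equal weighting. With 1 section per day this change between days was not tested. The other 7 genes ranged from 0.86 (*Acta1*, Day 14) to 1.40 (*Tnni2*, Day 7).

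**Figure D3:**
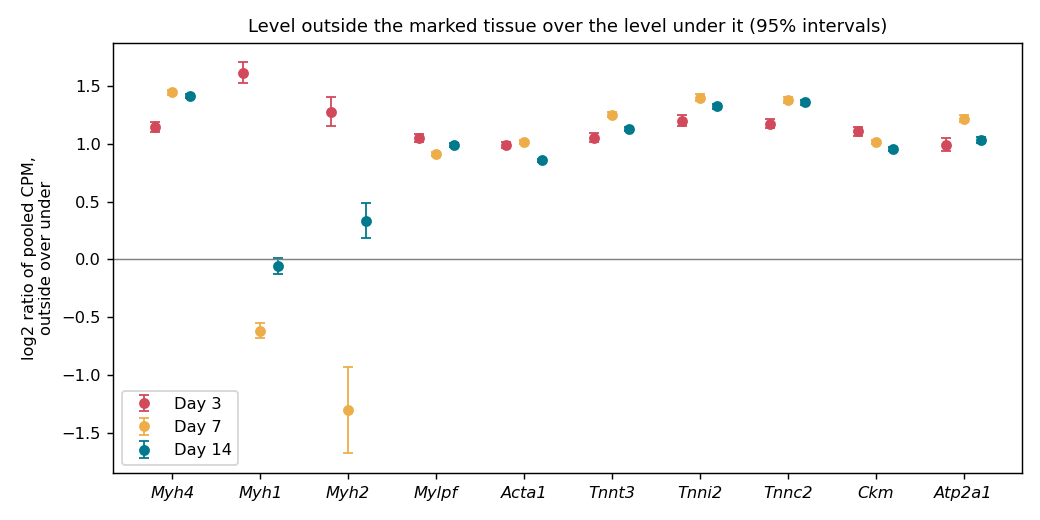
Log2 ratio of the pooled CPM outside the marked tissue over that under it, for each gene and day, with 95% conditional binomial intervals. Points above 0 are higher outside. *Myh1* and *Myh2* are above 0 on Day 3 and below it on Day 7, and the other 8 genes lie between 0.86 and 1.44 on each day.

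The fast fibre signal was concentrated in parts of each slide. Among spots with at least 500 UMIs, the share of the 10 genes in a spot under tissue had a median of 3.75%, 6.04% and 5.77% on Days 3, 7 and 14, with ranges from 0.511% to 23.0%, 1.56% to 23.2% and 1.53% to 25.9%. Outside, the medians were 9.05%, 11.1% and 8.65%, and the maxima 24.4%, 28.5% and 25.7%. The median spot under tissue on Day 3 had less than that of Day 7, while its upper quartile was higher, 10.7% against 7.49%. The richest 10% of the spots under tissue held 33.8% of the UMIs of the set, 22.2% and 21.9% on Days 3, 7 and 14. *Myh2* on Day 7 had 79.5% of its UMIs under tissue in the richest 10% and a UMI in 89 of the 549 spots. It had 166 UMIs there, and a gene with few UMIs can fill only few spots. Its share therefore cannot be set against those of genes with more UMIs.

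**Figure D4:**
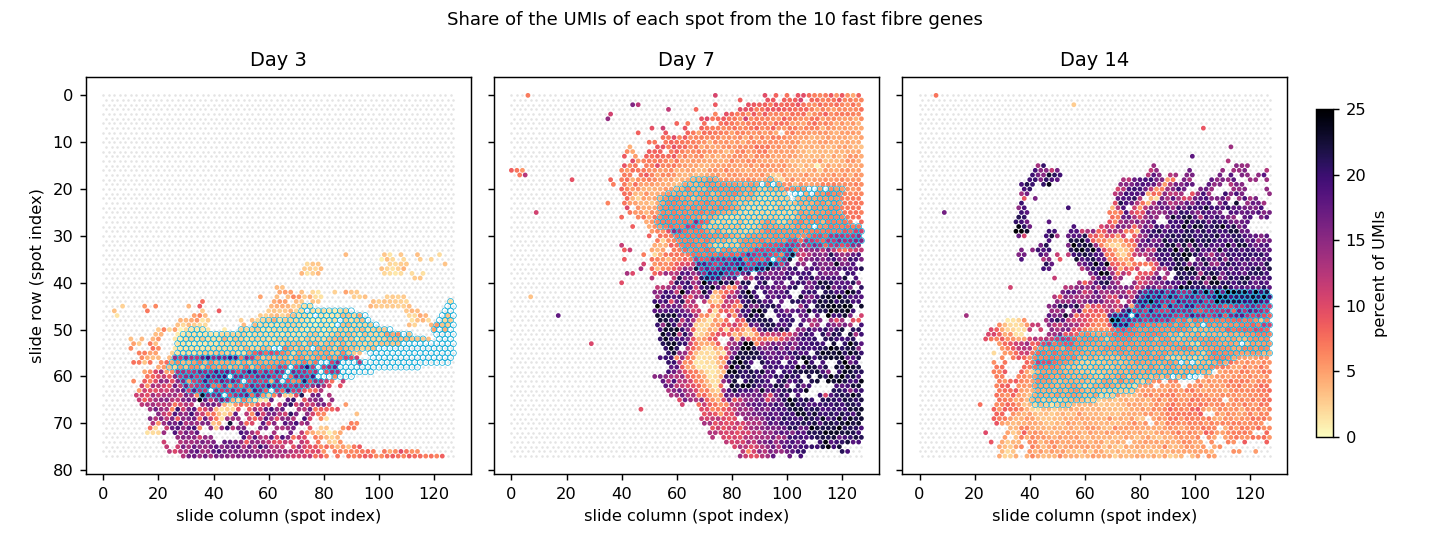
Share of the UMIs of each spot that came from the 10 genes, in percent, on the 3 slides, with slide row and column as axes. Spots with at least 500 UMIs are coloured, the rest are grey, and blue rings mark the spots under tissue. The spots at 20% and above lie mostly outside the rings, 412 of 418 on Day 7 and 202 of 233 on Day 14.

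Spots in which at least 20% of the UMIs came from the 10 genes numbered 10, 418 and 233 on Days 3, 7 and 14, the cut having been set after the values were seen. On Day 3 none formed a patch of 10 or more adjacent spots. On Day 7 there were 5 such patches with 351 spots, each wholly outside the marks, and on Day 14 there were 3 with 166 spots, of which 23 were under tissue. The myosin in the patches was almost purely *Myh4*. Its share ran from 99.2% to 99.6% over the 5 patches of Day 7 and from 98.9% to 99.5% over the 3 of Day 14. Over all spots outside the marks the *Myh4* share was 97.2% on Day 7 and 95.2% on Day 14. *Myh4* is itself among the 10 genes that set the cut, so a high *Myh4* count helps to place a spot in a patch. In the patch with the most spots on Day 7, 205 spots held 15444 UMIs of *Myh4*, 105 of *Myh1* and 6 of *Myh2*.

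Spot by spot, *Myh4* led nearly everywhere that the count allowed a call. Among spots with at least 20 fast myosin UMIs, *Myh4* had the highest share in 142 of 157 under tissue on Day 3 (90.4%). It had the highest share in 495 of 511 on Day 7 (96.9%) and 613 of 625 on Day 14 (98.1%). Spots of 1 section are not replicates, so no interval is given for these percentages. Outside, it led in 244 of 272, 1318 of 1319 and 855 of 860. *Myh1* led in 9 and 22 spots on Day 3, under and outside, in 15 and 1 on Day 7 and in 12 and 4 on Day 14. *Myh2* led in 5 and 3 spots on Day 3, in 0 and 0 on Day 7, and in 0 and 1 on Day 14, and the remaining spots were ties. The share of *Myh1* reached 89.5% in a spot on Day 3 and 86.1% on Day 14, but 66.0% on Day 7. A stricter reading, with *Myh4* above 80% of the spot, took in 54.8% of the spots under tissue, 85.1% and 86.2% on Days 3, 7 and 14.

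In all 3 sections, spots not led by *Myh4* were more common beside each other than beside *Myh4*-led spots. They made up 10.0%, 0.929% and 1.14% of spots with at least 20 fast myosin UMIs on Days 3, 7 and 14. Because these rates differ, the neighbour shares below cannot be compared directly between days. The 43 such spots of Day 3 fell into 23 groups of adjacent spots, the 17 of Day 7 into 14 and the 17 of Day 14 into 11. On Day 3, 53.5% of the counted neighbours of such spots were also not led by *Myh4*, against 3.22% of the neighbours of *Myh4*-led spots. The shares were 6.52% and 0.948% on Day 7, and 15.2% and 1.06% on Day 14. The summed share of *Myh1* and *Myh2* correlated between adjacent spots with Pearson r = 0.48 on Day 3 (781 pairs), 0.50 on Day 7 (4583 pairs) and 0.51 on Day 14 (3723 pairs). These are descriptions across spots that share a section and library. The largest run of adjacent spots not led by *Myh4* was 8 spots on Day 3, outside the marks near the slide edge, against 2 on Day 7 and 3 on Day 14, both under tissue. In the 8 spots *Myh1* held 72.7% of the fast myosin UMIs (67.5 to 77.4), *Myh2* 18.9% and *Myh4* 8.41%, from 333 UMIs. Without them, the *Myh1* share outside on Day 3 was 17.3% in place of 18.2%.

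**Figure D5:**
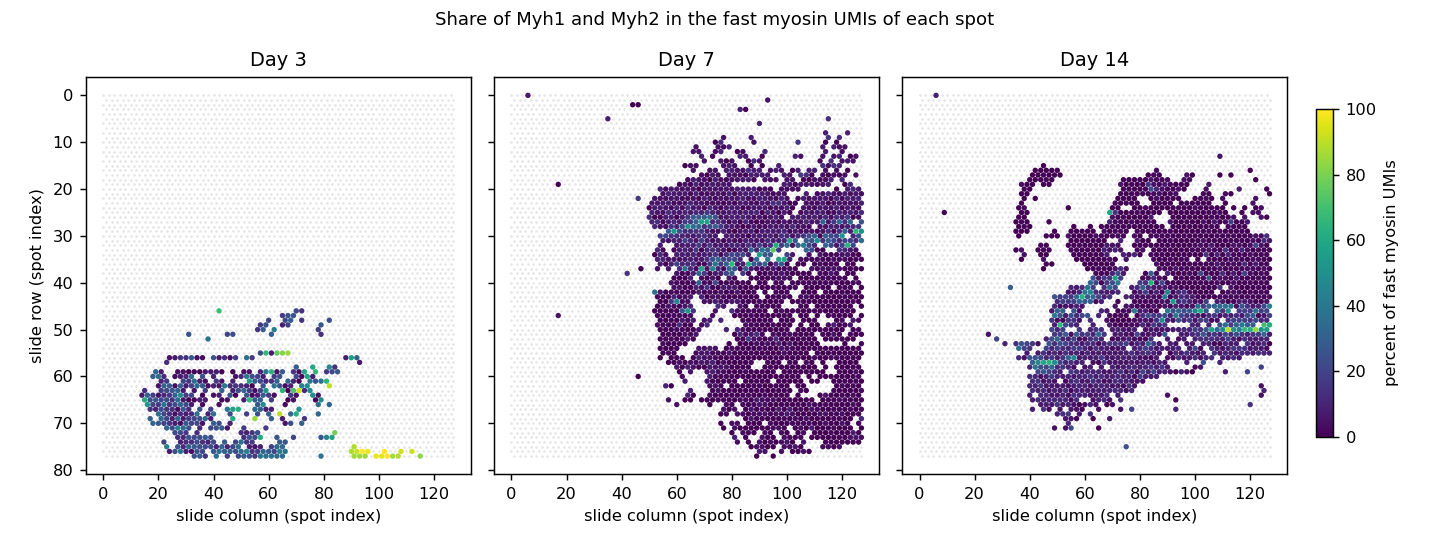
Summed share of *Myh1* and *Myh2* in the fast myosin UMIs of each spot, in percent, on the 3 slides, with slide row and column as axes. Coloured spots had at least 20 fast myosin UMIs and the rest are grey. On Day 7 and Day 14 the higher shares lie in narrow bands across a field in which *Myh4* led 1813 of 1830 and 1468 of 1485 spots.

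Outside the marks on Day 7 and Day 14, the spots richest in the 10 genes had the lowest *Myh1* share. The ordering is not independent of the myosins, which are among the 10 genes. *Myh4* held 17.3% and 14.9% of their UMIs outside on Day 7 and Day 14, so a high *Myh4* count itself helps to place a spot in the top part. When spots with at least 500 UMIs were ordered by the share of the 10 genes and split into 4 equal parts, the top part outside on Day 7 had 0.736% *Myh1* and 99.2% *Myh4*, while the bottom part had 5.30% and 94.5%. On Day 14 outside, the top part had 1.34% *Myh1* and the bottom part 7.85%. Under tissue on Day 7 the order was the reverse: *Myh1* held 20.9% in the top part (20.1 to 21.8) and 6.22% in the bottom one. On Day 14 under tissue the top part, at 10.6%, was also above the bottom part, at 7.76%, with the highest value, 13.6%, in the part below the top. On Day 3 outside, the second part from the bottom stood out with 35.7% *Myh1* (33.8 to 37.7), 14.7% *Myh2* and 49.6% *Myh4*. By distance from the marked spots, counted in spot spacings, the Day 3 *Myh1* share was 31.2% between 10 and 20 spacings and between 14.8% and 16.9% in the other 4 bins. On Day 7 it was 5.77% within 2 spacings and 1.87% between 10 and 20.

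The spots led by *Myh1* or *Myh2* (ties included) also differed from *Myh4*-led spots in genes outside the myosins, a comparison added after the values were seen. Under tissue on Day 7, 16 such spots were set beside 495. The 16 spots were also richer in muscle RNA in general. The members other than the myosins were at 79503 against 42168 CPM (log2 ratio 0.91, 0.87 to 0.96), and the list of genes shared by fast and slow fibres had 2.06. The ratios below were not adjusted for this. *Mb*, the oxygen-binding myoglobin, was at 2362 against 228 CPM (3.37), and *Actn2*, the alpha-actinin of the Z disc, at 1215 against 90.9 CPM (3.74). *Csrp3*, a Z disc protein of slow fibres and heart, had a log2 ratio of 4.48 there. Without the 2 adjacent spots that formed the largest run, these 3 ratios were 3.67, 3.84 and 3.91.

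The slow and embryonic lists rested on those 2 spots. The slow fibre list was at 1991 CPM against 399 CPM (log2 ratio 2.32, 2.04 to 2.59), and 0.93 (0.22 to 1.57) without them. The embryonic and regenerating muscle list was at 5433 CPM against 982 CPM (2.47, 2.30 to 2.63), but the other 14 spots held 11 of its 322 UMIs, so that without the 2 spots it was lower than in *Myh4*-led spots, at 420 CPM (-1.23, -2.23 to -0.38). *Myl4*, the embryonic light chain, had 130 UMIs in the 16 spots and 1 in the 14, and *Myh8*, the perinatal heavy chain, 73 and 0. These 5 genes, and the sets of spots left out, were chosen after their values were seen.

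Not all of this held on the other days. On Day 3 under tissue, with 15 spots against 142, the slow list had a log2 ratio of 1.36 (1.15 to 1.56), which was 0.52 without the single spot with most of its UMIs, and *Mb* had 1.29 (0.97 to 1.59). On Day 3 outside, with 28 against 244, *Mb* was at 7859 against 2965 CPM (1.41, 1.28 to 1.53) while the other fast fibre genes were lower, at 10008 against 28306 CPM (-1.50, -1.60 to -1.40). Of the members themselves, *Ckm* had a ratio of -1.20 and *Acta1* of -0.49 in that comparison. *Csrp3* was also lower outside on Day 3, at 233 against 376 CPM (-0.69, -1.44 to -0.02), and *Actn2* had 0.63 (0.22 to 1.02). Under tissue on Day 3 the ratios were 0.33 for *Ckm*, 0.40 for *Acta1*, 2.71 for *Csrp3* and 1.93 for *Actn2*. For *Csrp3* and *Actn2* on Day 14 they were 2.05 and 2.52 under tissue, and 2.68 and 1.90 outside. On Day 14 under tissue, with 12 against 613, *Mb* had a ratio of 1.75 (1.46 to 2.02), while the interval of the slow list spanned 0 (0.39, -0.14 to 0.87). The embryonic list had a ratio of 2.13 (1.77 to 2.47) there, which was 0.84 without the spot with most of its UMIs, and one of -2.43 (-4.71 to -0.88) outside, from 3 UMIs in 5 spots. Across all counted spots the *Myh1* share correlated with *Mb* at r = 0.39 on Day 3 (429 spots), 0.52 on Day 7 (1830) and 0.45 on Day 14 (1485). With the slow list r was 0.19, 0.23 and 0.27, and with the embryonic list 0.23, -0.23 and -0.11. The embryonic list was taken as a sum of UMIs, of which *Actc1* held 9201 of 10086 outside on Day 7.

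Other genes of the fast programme had values of the same kind. Of 10 further fast fibre genes, 1 (*Pvalb*) was above 2-fold (8.04% of all genes) and 0 below (6.49%) from Day 3 to Day 7 under tissue. Their median log2 ratio was 0.43, beside 0.04 over all genes. *Pvalb*, a calcium buffer of type IIb fibres, was at 2057, 4184 and 4173 CPM under tissue and at 4030.0, 8906 and 7708 CPM outside. *Myl1*, the essential light chain of fast myosin, was at 2783, 3438 and 4361 CPM under tissue. *Actn3*, the alpha-actinin of fast fibres, was at 889, 1321 and 1158 CPM under tissue. *Pvalb* and *Actn3* were, like *Myh4*, lowest on Day 3 under tissue.

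Slow fibre genes were far lower on Day 7 than on Day 3. From Day 3 to Day 7, 8 of 10 were lower past 2-fold under tissue (6.49% of all genes) and 10 of 10 outside (5.57%). In either place 0 were higher (8.04% and 9.80% of all genes). The median log2 ratios were -2.60 under tissue and -5.00 outside, beside 0.04 and 0.12 over all genes. *Atp2a2*, the pump of slow fibres and many other cells, was at 275, 133 and 152 CPM under tissue. *Tpm3*, a tropomyosin also made outside muscle, was at 238, 150.3 and 130.3 CPM. *Myl3*, a light chain of slow fibres and heart, was at 169, 1.80 and 36.6 CPM, with 8 UMIs on Day 7. The 3 days kept the order seen for *Myh2*, with Day 7 lowest and Day 14 between, for *Myl3* in both places.

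Embryonic and regenerating muscle genes did the opposite. Of the 10, 8 were counted often enough from Day 3 to Day 7 under tissue, and 8 were higher past 2-fold (8.04% of all genes). From Day 7 to Day 14 under tissue 9 were counted and 9 were lower (7.34% of all genes). The median log2 ratios were 5.28 and -1.75, beside 0.04 and 0.13 over all genes. *Actc1*, the actin of heart and of regenerating skeletal fibres, was at 11.3, 614 and 182 CPM under tissue and at 25.8, 1425 and 492 CPM outside. *Myl4* was at 7.34, 188 and 39.2 CPM under tissue, and *Ncam1*, an adhesion molecule of newly formed fibres and nerves, at 18.1, 66.8 and 21.5 CPM. The list summed to 3122 CPM in the *Myh4*-led patch of 205 spots on Day 7, which lay outside the marks. *Actc1* alone held 9201 of the 10086 UMIs of the list outside on that day. Of the 10 genes, 8 were lower past 2-fold outside than under tissue on Day 7 (8.91% of all genes) and 2 were higher (3.36%). The sum thus says little about the other genes of the list there.

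Genes shared by fast and slow fibres were, in sum, lowest on Day 7 in both places. Of the 10 genes, 8 had their lowest level on Day 7 under tissue and 8 outside, the exceptions being *Ldb3* in both places, *Actn2* under tissue and *Trdn* outside. From Day 3 to Day 7, 1 of 10 was lower past 2-fold under tissue (6.49% of all genes) and 3 of 10 outside (5.57%). In either place 0 were higher (8.04% and 9.80% of all genes). The median log2 ratios were -0.72 under tissue and -0.80 outside, beside 0.04 and 0.12 over all genes. *Ttn*, which encodes titin, was at 1101, 655 and 981 CPM under tissue, *Tcap*, its Z disc partner, at 1107, 632 and 1133 CPM, and *Cox6a2*, a muscle subunit of cytochrome oxidase, at 658, 409.6 and 619.9 CPM. The summed list was at 5560 CPM, 3457 and 5077 on Days 3, 7 and 14 under tissue, and at 12193, 7202 and 10394 CPM outside. Over the same days *Myh4* was at its highest on Day 7, so that *Ttn* and *Myh4* ranked the days in different orders.

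Across spots the members followed one another, but *Myh1* and *Myh2* did so less on Day 3 and hardly at all on Day 7 and Day 14. With the members other than myosins, *Myh1* had r from 0.34 to 0.45 and *Myh2* from 0.27 to 0.36 on Day 3. On Day 7 and Day 14 these values lay between -0.08 and 0.04. Over spots with at least 500 UMIs, the 28 pairs without *Myh1* and *Myh2* had Pearson r from 0.56 to 0.78 on Day 3 (1194 spots), 0.61 to 0.87 on Day 7 (2657) and 0.63 to 0.81 on Day 14 (2469). *Myh1* and *Myh4* had r = 0.27, -0.07 and -0.03, and *Myh2* and *Myh4* 0.21, -0.03 and -0.03. *Myh1* and *Myh2* had r = 0.33, 0.15 and 0.24. The genes outside the set that were most like its sum were *mt-Co3* (r = 0.73), *Tpm1* (0.73), *Myl1* (0.72), *Aldoa* (0.71) and *mt-Nd2* (0.69) on Day 3. On Day 7 they were *Myl1* (0.83), *Tpm1* (0.82), *Pvalb* (0.81), *Aldoa* (0.76) and *Actn3* (0.62), and on Day 14 *Tpm1* (0.82), *Myl1* (0.82), *Aldoa* (0.81), *mt-Co1* (0.76) and *mt-Co3* (0.76). The spots of a slide share a library and its depth, and these values are descriptions.

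Spots rich in epidermal markers also carried some of this RNA. In the 20 marked spots with the highest share of epidermal markers, the 10 genes made up 1.60% of UMIs, 4.60% and 2.43% on Days 3, 7 and 14, against 4.18%, 5.09% and 6.08% in the other marked spots. Within these 20 spots *Myh4* held 83.7%, 94.1% and 92.1% of the fast myosin UMIs. On Day 7, 99.4% of the spots outside the marks had at least 1 *Myh4* UMI, and on Day 14 98.6% did, against 47.2% on Day 3. The part that RNA spreading between spots had in the levels was not tested.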

How the data were processed

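Visium sections of wounded mouse skin were compared, 1 per day. The deposited values are raw UMI counts, which the authors obtained with Space Ranger 1.3.0 on mm10, per the submitters' processing notes. The annotation behind them is not given in the sources used here. For each gene, UMIs were pooled across marked spots, and separately across those outside the marks, and scaled to the total of the pool (CPM). Sums carry exact Poisson, shares exact binomial (Clopper-Pearson) and ratios exact conditional binomial 95% intervals, which cover counting error only, and UMIs remove PCR copies. Folds of 2 were counted for genes that reached 50 UMIs in the pair of pools. With 1 section per day no test was run.

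The 10 genes and the companion lists were chosen with earlier results of these data known. The text names the 10 genes, the 3 genes of each companion muscle list with the most UMIs over the slides, and per slide the 5 genes whose log1p of UMIs per 10000 correlated most with the summed set over spots with at least 500 UMIs. Cuts for rich spots, distances, parts of the slide and spot profiles were set after the values were seen.

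Alternatives were edgeR (4.0.16) TMM and DESeq2 (1.42.0) size-factor scaling, the mean of spot CPM, spots with at least 500 UMIs, other denominators, other folds and gene minimums, and other spot minimums. GENCODE M21 held 32158 of the 32285 gene identifiers, and promoter windows came from RefSeq. Python 3.11.15, numpy 2.4.6, scipy 1.17.1, pandas 2.3.3, Biopython 1.88, matplotlib 3.10.9 and R 4.3.3 were used, and the intervals were tested on simulated counts. Cell types were not deconvolved, and no doublet caller was run on spots.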

Additional observations from a re-analysis of the deposited data

Results flagged for a closer look

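The comparison of places went opposite ways on different days for 2 genes. The log2 ratio of the level outside over under tissue was 1.61, -0.61 and -0.055 for *Myh1* on Days 3, 7 and 14, and 1.28, -1.30 and 0.34 for *Myh2*. With 1 section per day the difference between days was not tested.

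The comparison of days went opposite ways in the 2 places for *Myh1* and for *Mylpf*, also untested. The *Myh1* log2 ratio of Day 7 over Day 3 was 0.15 under tissue and -2.08 outside, and that of Day 14 over Day 3 was 0.11 under tissue and -1.56 outside. The *Mylpf* log2 ratio of Day 14 over Day 7 was -0.043 under tissue and 0.029 outside. Under tissue, the *Myh1* ratio of Day 14 over Day 3 turned negative with TMM factors (-0.040), size factors (-0.054) and the mean of spot CPM (-0.076). Both *Mylpf* ratios changed sign with equal weighting of spots.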

How the results depend on the processing

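The summed log2 ratios of the 10 genes are given as Day 7 over Day 3, Day 14 over Day 3 and Day 14 over Day 7 under tissue, the same 3 outside, and outside over under on Days 3, 7 and 14. As pooled CPM they were 0.35, 0.56, 0.21, 0.40, 0.55, 0.16, 1.09, 1.13 and 1.08. With TMM factors they were 0.33, 0.42, 0.089, 0.36, 0.47, 0.11, 1.48, 1.51 and 1.53, and with DESeq2 size factors 0.31, 0.40, 0.10, 0.28, 0.45, 0.17, 1.47, 1.44 and 1.52. TMM shifted every gene by between 0.38 and 0.45 in outside over under, by -0.15 and -0.12 in Day 14 over Day 3 and over Day 7 under tissue, and by less than 0.1 in the other comparisons, and the size factors shifted them by 0.38, 0.31 and 0.44, and by -0.16, -0.12, -0.11 (Day 7 over Day 3, outside) and -0.10 (Day 14 over Day 3, outside). The mean of spot CPM gave 0.082, 0.26, 0.18, 1.05, 1.10, 0.052, -0.20, 0.77 and 0.64, so that outside over under on Day 3 changed direction. Without mitochondrial genes in the denominator the ratios were 0.31, 0.55, 0.24, 0.35, 0.53, 0.18, 1.19, 1.23 and 1.17, and without the muscle-list genes 0.37, 0.60, 0.23, 0.45, 0.63, 0.18, 1.19, 1.27 and 1.22. With spots of at least 500 UMIs, 7 of them left their intervals, at 0.37 and 0.58 under tissue (Day 7 and Day 14 over Day 3), 0.22, 0.37 and 0.14 outside, and 1.28 and 1.06 for outside over under on Day 3 and Day 14.

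Single genes whose interval did not span 0 changed direction in 24 of 540 alternative values, given next. With TMM factors these were *Myh1* Day 14 over Day 3 under tissue (-0.040), *Ckm* Day 14 over Day 7 under tissue (-0.069), and outside, for Day 14 over Day 7, *Mylpf* (-0.016) and *Atp2a1* (-0.012). With size factors they were *Myh1* (-0.054) and *Ckm* (-0.063) in the same comparisons. With the mean of spot CPM, outside over under on Day 3 changed direction for *Myh4* (-0.013), *Acta1* (-0.20), *Ckm* (-0.35), *Tnnt3* (-0.30), *Tnni2* (-0.31), *Tnnc2* (-0.25), *Mylpf* (-0.21) and *Atp2a1* (-0.32), and on Day 14 for *Myh2* (-0.43). Under tissue it also turned *Myh1* (-0.076) and *Tnnc2* (-0.021) for Day 14 over Day 3, *Acta1* (-0.11) and *Atp2a1* (-0.0071) for Day 7 over Day 3, and *Ckm* (-0.020) and *Mylpf* (0.012) for Day 14 over Day 7. Outside it turned *Tnnc2* for Day 7 over Day 3 (0.63), and *Mylpf* (-0.067) and *Atp2a1* (-0.035) for Day 14 over Day 7. A further 9 values changed sign where the interval already spanned 0, namely *Myh1* outside over under on Day 14 (from -0.055 to 0.40 with TMM and 0.38 with size factors, and 0.041 and 0.091 with the other denominators), *Ckm* Day 14 over Day 7 outside (up to 0.028) and *Tnni2* Day 7 over Day 3 outside (0.76 with the mean of spot CPM). The mean of spot CPM also raised Day 7 over Day 3 outside to 0.80 for *Acta1*, 1.42 for *Ckm*, 1.19 for *Tnnt3* and 1.20 for *Mylpf*. The cause was not tested.

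With a fold of 1.5 the members counted as higher were 3, 4 and 2 under tissue for Day 7 over Day 3, Day 14 over Day 3 and Day 14 over Day 7, and 3 and 2 outside for the last 2, while the counts of lower members and all counts without the gene minimum moved by less than 1.5 times. The share of all genes past a fold of 1.5 was not computed, so these counts have no background to be read against. The *Myh4* share was 97.6% and 95.4% outside on Day 7 and Day 14 with spots of at least 500 UMIs, and 71.9% outside on Day 3 as a mean of spot shares. Without the largest run of adjacent spots not led by *Myh4*, an alternative chosen after seeing the data, the embryonic list and *Myl4* in spots led by *Myh1* or *Myh2* on Day 7 under tissue turned to -1.23 and -2.08, and the *Myh4* share was 74.3% outside on Day 3 and 89.8% under tissue on Day 7. *Myh4* led 95.2% of spots outside on Day 3 and 96.7% under tissue on Day 14 with a minimum of 50 fast myosin UMIs. It exceeded 80% of the spot in 54.8%, 85.1% and 86.2% of spots under tissue and in 38.6%, 98.9% and 93.7% outside. No paired analysis was possible because each day had 1 section, which also left no section to leave out. *Myh2* on Day 7, with 166 UMIs under tissue and 98 outside, was the value most limited by depth.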
